A study of Solanum lycopersicum with 9 samples.

Results

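The genes described here encode alcohol dehydrogenases, pyruvate decarboxylases and lactate dehydrogenases of tomato (Solanum lycopersicum), the enzymes of ethanol and lactate fermentation and their relatives. They were chosen by gene description alone, as every row that names one of these 3 enzymes, leaving out 12 cinnamyl alcohol dehydrogenases of lignin synthesis. The rule took 43 of 40229 rows, made up of 34 alcohol dehydrogenase, 4 pyruvate decarboxylase and 5 lactate dehydrogenase rows. RNA came from seeds imbibed for 6 h, that is, seeds that had taken up water for the first hours of germination. There were 3 libraries of SlLBD40 knockout seeds, 3 of SlWRKY37 knockout seeds and 3 of wild-type (WT) seeds, and all groups shared the imbibition and its time. SlLBD40 is a LOB domain protein and SlWRKY37 a WRKY protein, both from families of plant transcription factors. The labels give neither the alleles nor the number of lines behind each knockout, and do not say whether libraries came from separate plants or seed lots. The p-values therefore measure only the spread between these libraries, which may be technical.

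In fermentation, pyruvate decarboxylase splits pyruvate into acetaldehyde and carbon dioxide, and alcohol dehydrogenase reduces acetaldehyde to ethanol. Lactate dehydrogenase instead reduces pyruvate to lactate. Both routes give back the NAD+ that glycolysis needs when respiration is limited by oxygen. An imbibing seed, whose coats and dense tissues slow the entry of oxygen, is a classical site of ethanol formation in plants, and these enzymes are known as anaerobic proteins of roots and seedlings. The name alcohol dehydrogenase also covers relatives with other substrates, such as allyl alcohol dehydrogenases, and proteins that share only a fold or a zinc-binding domain.

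Levels are deposited expression values taken as FPKM, which scale reads by transcript length and library size, so that genes can be compared with each other. Each gene goes by its description and chromosome, with a copy number in table order where both are shared. Library totals ranged between 856291 and 918103, with 23206 to 24507 genes above 0. Ratios among the lowest values, which move in steps of a single read if the values are FPKM, put the depth of the other libraries at 0.833 to 1.01 of that of WT replicate 1. Absolute depth is not known, and counting intervals were not computed. Seed transcripts were present in every library, with late embryogenesis genes at 2.07 to 2.60% of the total in the LBD40 knockout, 2.25 to 3.40% in the WRKY37 knockout and 5.79 to 7.20% in WT. One library stood apart from its group in seed storage transcripts. WRKY37 knockout replicate 3 had 1.11% of its total in seed storage protein genes, against 0.402 and 0.491% in the other WRKY37 knockout libraries, and lay within the WT range of 0.935 to 1.12%. Its late embryogenesis share, 3.40%, stayed below WT. Over all tested genes its lowest correlation within its group was 0.960, above its highest with another group, 0.953. The row described as LOB domain-containing protein 40 held 42.86, 43.85 and 36.07 in the LBD40 knockout, against 20.41, 5.6 and 11.82 in WT, and was higher in that knockout (limma, log2 change 1.78, adjusted p = 0.0169). The row described as WRKY transcription factor 37 held 0.23, 0 and 0 in the WRKY37 knockout, against 0.28, 0.7 and 0.92 in WT. Whether these rows are the edited genes was not settled, and a knockout allele can keep its transcript, so neither row checks the labels.

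Of the 43 genes, 29 were above 0 in at least 1 library and 14 were listed at 0 in all 9. All 4 pyruvate decarboxylase genes were above 0, as were 4 of 5 lactate dehydrogenase and 21 of 34 alcohol dehydrogenase genes. Chromosome 9 held 6 alcohol dehydrogenase rows, of which 5 were listed at 0. The test took in genes whose mean over the 9 libraries reached 1, which left 20: 14 alcohol dehydrogenases, 3 pyruvate decarboxylases and 3 lactate dehydrogenases. The 9 genes above 0 that were not tested had means between 0.0122 and 0.848. Among the tested genes 5 had a mean of at least 100, 9 lay between 10 and 100 and 6 between 1 and 10. An alcohol dehydrogenase on chromosome 6 and a pyruvate decarboxylase on chromosome 10 were among the most abundant transcripts of the seed, at ranks 23 and 34 of all rows by mean level in WT. A few genes thus held most of the fermentation transcripts, and the other rows were low or listed at 0.

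**Figure D1:**
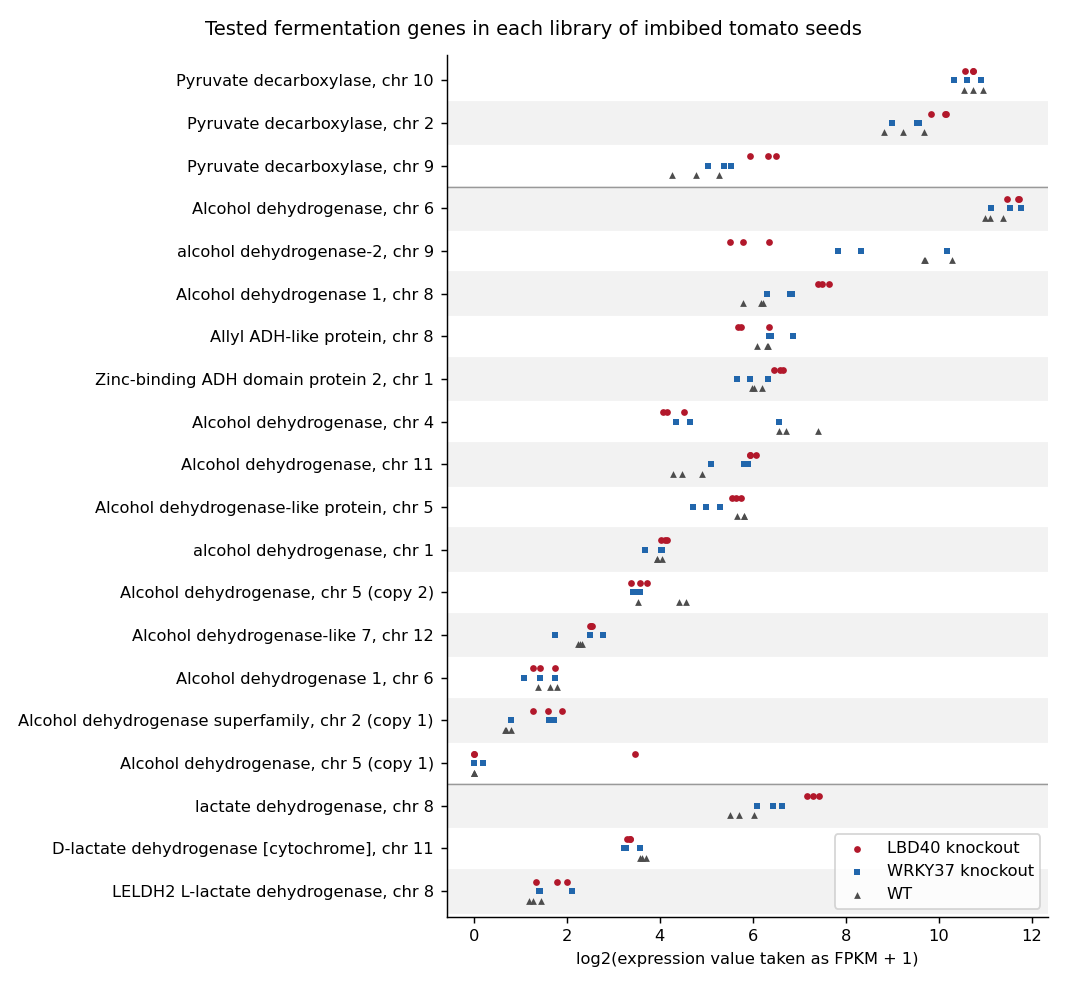
Levels of the 20 tested genes in every library, on the log2(value + 1) scale, with LBD40 knockout libraries as red circles, WRKY37 knockout libraries as blue squares and WT libraries as grey triangles. Horizontal lines part pyruvate decarboxylases, alcohol dehydrogenases and lactate dehydrogenases, and alcohol dehydrogenase-2 on chromosome 9 shows the widest distance between the LBD40 knockout and WT.

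In LBD40 knockout seeds 7 of the 20 tested genes were higher and 2 were lower than in WT at an adjusted p below 0.05 (limma over all genes tested, Benjamini-Hochberg). The share of 45% stands beside 37.2% of all 18346 tested genes in that comparison, where 18.0% were higher and 19.2% lower. The median log2 change was 0.32 over the 20 genes and -0.02 over all genes. Libraries of the groups did not overlap for 12 of the 20 genes, 9 higher and 3 lower, against 56.8% of all genes. The higher genes were 2 pyruvate decarboxylases, 4 alcohol dehydrogenases and 1 lactate dehydrogenase, and both lower genes were alcohol dehydrogenases.

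In WRKY37 knockout seeds 2 genes were higher and 1 was lower than in WT, which is 15% of the 20, beside 9.38% of all genes (4.82% higher, 4.56% lower). The median log2 change was 0.06 over the 20 genes and 0.02 over all genes. Groups did not overlap for 5 of the 20 genes, 4 higher and 1 lower, against 27.3% of all genes. Without WRKY37 knockout replicate 3 the count became 7, 4 higher and 3 lower, beside 14.3% of all genes. It became 1, a lower gene, without WRKY37 knockout replicate 1 or 2 or WT replicate 2, beside 6.18, 7.34 and 6.76% of all genes.

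Set against each other, the LBD40 knockout was higher than the WRKY37 knockout for 6 of the 20 genes and lower for 2, which is 40% beside 27.0% of all genes (12.9% higher, 14.1% lower). The median log2 difference was 0.17 over the 20 genes and -0.08 over all genes, and groups did not overlap for 8 genes (7 higher, 1 lower) against 42.3% of all genes. This count fell to 3 without LBD40 knockout replicate 1, where 12.4% of all genes were called. It fell to 4 without LBD40 knockout replicate 2 or WRKY37 knockout replicate 2, where 13.8% and 17.9% were called. Both comparisons with WT used the same 3 WT libraries, so their values are given side by side.

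**Figure D2:**
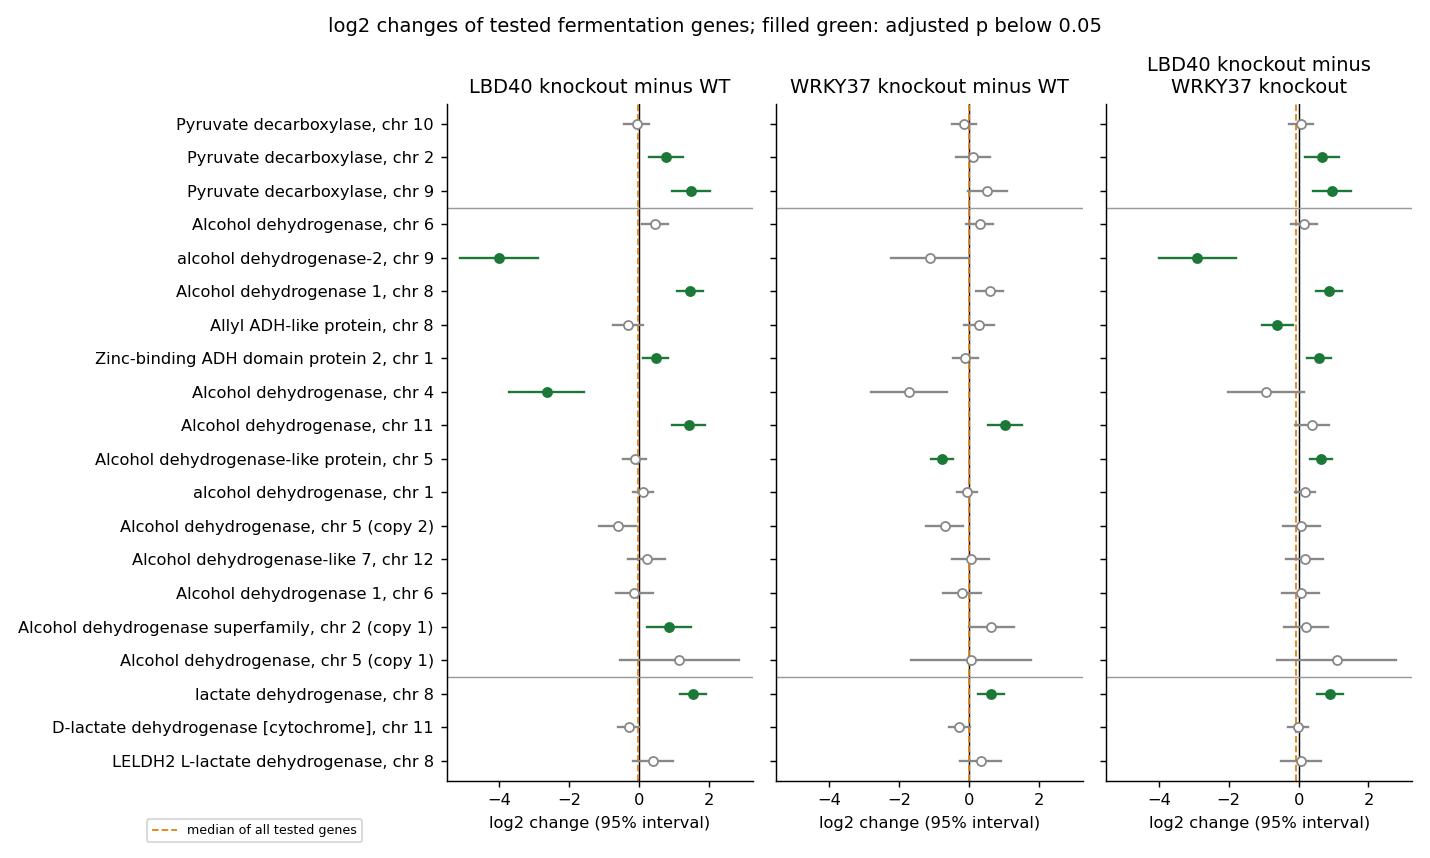
log2 changes with 95% intervals of the 20 tested genes in the LBD40 knockout minus WT, the WRKY37 knockout minus WT and the LBD40 knockout minus the WRKY37 knockout, with filled green points where the adjusted p was below 0.05 and the dashed line at the median of all tested genes. The first panel has 7 filled points above 0 and 2 below, the second 2 above and 1 below, and the third 6 above and 2 below.

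Pyruvate decarboxylase, which commits pyruvate to ethanol, was read from 3 tested genes, of which the less abundant pair was higher in the LBD40 knockout. The main gene, on chromosome 10, held 1711.53, 1711.69 and 1513.77 in LBD40 knockout libraries, 1284.71, 1551.39 and 1911.72 in WRKY37 knockout libraries, and 1976.86, 1498.6 and 1703.07 in WT libraries. The 3 groups overlapped throughout. Its log2 change was -0.06 (95% interval -0.41 to 0.29) in the LBD40 knockout and -0.13 (95% interval -0.49 to 0.22) in the WRKY37 knockout, and passed the limma test in neither (adjusted p = 0.779 and 0.644). Both intervals leave out a change of 1.5 times in either direction. Levels and totals here are relative to the whole library of a bulk seed sample, in which fewer cells of a type and less RNA per cell cannot be told apart.

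The second pyruvate decarboxylase gene, on chromosome 2, held 1137.68, 1118.8 and 911.42 in LBD40 knockout libraries, 509.75, 735.01 and 757.1 in WRKY37 knockout libraries, and 815.53, 453.03 and 603.03 in WT libraries. Every LBD40 knockout library lay above all 6 others, while the WRKY37 knockout and WT overlapped. The means were 1056 ± 126, 667 ± 137 and 624 ± 182 in the same order (SD, n = 3 each). It was 1.69 times as high in the LBD40 knockout as in WT (limma log2 change 0.79, SE 0.22, adjusted p = 0.0183) and higher than in the WRKY37 knockout (log2 difference 0.68, adjusted p = 0.0443). The call against WT was lost without LBD40 knockout replicate 1 or 2 or WT replicate 2 or 3, at adjusted p of 0.0509 to 0.0686. Between the knockouts it was lost without any 1 of LBD40 knockout replicates 1 to 3, WRKY37 knockout replicate 1 or 2 or WT replicate 3, at adjusted p of 0.0506 to 0.143, and also under median-ratio scaling and without the low-value filter (0.0541 and 0.0914). In the WRKY37 knockout minus WT the log2 change was 0.12 (adjusted p = 0.790).

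The third gene, on chromosome 9, was much less abundant. It held 79.56, 89.95 and 60.66 in LBD40 knockout libraries, 45.08, 31.58 and 40.77 in WRKY37 knockout libraries, and 37.8, 26.44 and 18.22 in WT libraries. The LBD40 knockout stood above both other groups without overlap, and the WRKY37 knockout overlapped WT. It was 2.79 times as high in the LBD40 knockout as in WT (limma log2 change 1.49, SE 0.25, adjusted p = 0.00189). Against the WRKY37 knockout it was higher by a log2 difference of 0.95 (adjusted p = 0.0200), a call lost without LBD40 knockout replicate 1 or 2 or WRKY37 knockout replicate 2 (0.0735 to 0.0805). The log2 change of 0.54 in the WRKY37 knockout minus WT did not pass the test (adjusted p = 0.208). The remaining gene, on chromosome 6, was too low to test, at 1.82, 1.76 and 0.98 in LBD40 knockout libraries, 0.39, 0.44 and 0.23 in WRKY37 knockout libraries, and 0.61, 0.51 and 0.89 in WT libraries.

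Alcohol dehydrogenase transcripts came mostly from 1 gene on chromosome 6. This gene held 3306.54, 3358.06 and 2839.3 in LBD40 knockout libraries, 2228.65, 2954.37 and 3486.82 in WRKY37 knockout libraries, and 2649.51, 2043.7 and 2197.62 in WT libraries. LBD40 knockout and WT libraries did not overlap, with the knockout above, whereas the WRKY37 knockout overlapped both. Its lowest value lay above 2 of the WT libraries and its highest above every LBD40 knockout library. The log2 change was 0.47 (SE 0.17, 95% interval 0.09 to 0.85) in the LBD40 knockout and missed the threshold (limma, adjusted p = 0.0549). It passed with only the LBD40 knockout and WT in the fit (0.0263), with a minimum mean of 5 (0.0419), and without WRKY37 knockout replicate 1 or 3 (0.0253 and 0.0310). In the WRKY37 knockout the change was 0.32 (95% interval -0.07 to 0.70, adjusted p = 0.288). The reference gene table lists a tomato gene named ADH2 on chromosome 6, where the data have 2 alcohol dehydrogenase rows, and the shortened gene IDs do not settle which row it is.

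The second alcohol dehydrogenase of WT seeds, alcohol dehydrogenase-2 on chromosome 9, was the gene with the largest log2 change of the 20 in the LBD40 knockout, where it was lower. It held 44.67, 54.51 and 80.99 in LBD40 knockout libraries, 226.74, 321.98 and 1161.45 in WRKY37 knockout libraries, and 1235.24, 817.51 and 835.22 in WT libraries. All LBD40 knockout values lay below all others. WRKY37 knockout replicates 1 and 2 lay between the groups, and WRKY37 knockout replicate 3 lay within the WT range. In WT this gene ranked 102 among all rows. It was lower by 16.0 times in the LBD40 knockout than in WT by the ratio of means (limma log2 change -4.00, SE 0.50, adjusted p = 0.000573), and by 9.49 times than in the WRKY37 knockout (log2 difference -2.89, adjusted p = 0.00366). Both calls held under every alternative tried. The WRKY37 knockout minus WT gave -1.10 (95% interval -2.21 to 0.01, adjusted p = 0.202), and -1.80 with adjusted p = 0.00436 without WRKY37 knockout replicate 3.

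A further alcohol dehydrogenase, on chromosome 4, was also lower in the LBD40 knockout, at a lower level. It held 16.89, 15.8 and 22.01 in LBD40 knockout libraries, 19.33, 23.89 and 93.72 in WRKY37 knockout libraries, and 168.36, 93.54 and 103.64 in WT libraries. The LBD40 knockout stood wholly below WT, and of the WRKY37 knockout libraries only replicate 3 reached the WT range. It was lower by 6.68 times in the LBD40 knockout than in WT (limma log2 change -2.64, SE 0.48, adjusted p = 0.00294), under every alternative tried. The WRKY37 knockout gave a log2 change of -1.71 (95% interval -2.79 to -0.63, adjusted p = 0.0537), which passed with a minimum mean of 5 (0.0435) and was -2.40 with adjusted p = 0.000914 without WRKY37 knockout replicate 3. The knockouts did not differ by the test (log2 difference -0.93, 95% interval -2.01 to 0.15, adjusted p = 0.175).

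Seed storage transcripts, like these 2 genes, lay below WT in every LBD40 knockout library and near WT in WRKY37 knockout replicate 3. Of 67 rows described as seed storage proteins, 24 to 32 were above 0 in a library, and they summed to 0.300 to 0.358% of the LBD40 knockout libraries, 0.402 to 1.11% of the WRKY37 knockout libraries and 0.935 to 1.12% of the WT libraries. Oil body genes, with 12 to 14 of 24 rows above 0, took 0.376 to 0.464%, 0.341 to 0.634% and 0.825 to 1.08% in the same order. WRKY37 knockout replicate 3 had the highest share in its group for both lists. The oil body list did not follow the order of the 2 genes library by library: WRKY37 knockout replicate 2 had its lowest share, and WT replicate 2, with the lowest WT values of both genes, its highest. The part of these reserve transcripts in the lower alcohol dehydrogenase levels was not tested.

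**Figure D3:**
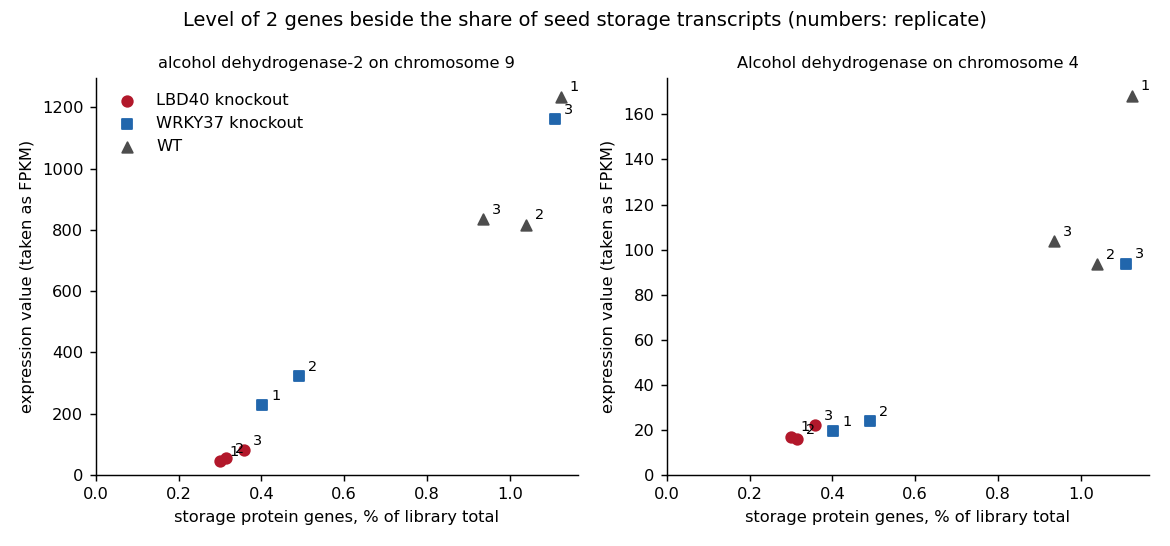
Level of alcohol dehydrogenase-2 on chromosome 9 (left) and of alcohol dehydrogenase on chromosome 4 (right) in each library against the percentage of the library total in seed storage protein genes, with replicate numbers beside the points. WRKY37 knockout replicate 3, at 1.11% storage transcripts, lies near the WT libraries in both panels, and the other 5 knockout libraries lie below 0.5%.

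A further 4 alcohol dehydrogenases were higher in the LBD40 knockout. Alcohol dehydrogenase 1 on chromosome 8 held 168.67, 177.46 and 198.66 in LBD40 knockout libraries, 114.2, 111.01 and 77.59 in WRKY37 knockout libraries, and 70.96, 72.89 and 54.09 in WT libraries. The 3 groups stood apart without overlap, LBD40 knockout highest and WT lowest. The gene was 2.75 times as high in the LBD40 knockout as in WT (limma log2 change 1.46, SE 0.17, adjusted p = 0.000417) and higher than in the WRKY37 knockout (log2 difference 0.86, adjusted p = 0.00625). Its log2 change of 0.60 in the WRKY37 knockout (SE 0.17) missed the threshold at adjusted p = 0.0524. That value passed under quantile normalization, equal library totals, median-ratio scaling and a minimum mean of 5 (0.0270 to 0.0452), and without WRKY37 knockout replicate 3 (0.00949).

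Alcohol dehydrogenase on chromosome 11 was higher in both knockouts. It held 65.89, 60.04 and 60.75 in LBD40 knockout libraries, 55.45, 58.35 and 33.35 in WRKY37 knockout libraries, and 21.16, 18.52 and 29.1 in WT libraries. Every knockout library lay above every WT library, and every LBD40 knockout library lay above every WRKY37 knockout library. The gene was 2.71 times as high in the LBD40 knockout as in WT (limma log2 change 1.43, SE 0.22, adjusted p = 0.00127) and 2.14 times as high in the WRKY37 knockout (log2 change 1.05, SE 0.22, adjusted p = 0.0151). The second call was lost with only 2 groups in the fit (0.0663) and without WRKY37 knockout replicate 1 or 2 or WT replicate 1 or 2 (0.0539 to 0.0630). Between the knockouts the log2 difference was 0.38 (95% interval -0.10 to 0.86, adjusted p = 0.217).

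A zinc-binding alcohol dehydrogenase domain-containing protein 2 on chromosome 1, named for a domain and not for a known substrate, held 94.25, 98.56 and 86.29 in LBD40 knockout libraries, 79.67, 60.05 and 49.41 in WRKY37 knockout libraries, and 64.39, 62.2 and 72.72 in WT libraries. LBD40 knockout values lay above all others, and the other groups overlapped. It was 1.40 times as high in the LBD40 knockout as in WT (limma log2 change 0.48, SE 0.16, adjusted p = 0.0373), a call lost when any 1 of the 6 libraries of that comparison was left out (0.0522 to 0.115) and without the low-value filter (0.0612). Against the WRKY37 knockout it was higher by a log2 difference of 0.58 (adjusted p = 0.0242), lost with only 2 groups in the fit (0.0598) and without LBD40 knockout replicate 1 or 2 or WRKY37 knockout replicate 2 or 3 (0.0537 to 0.0858). The remaining gene called higher in the LBD40 knockout, alcohol dehydrogenase superfamily (copy 1) on chromosome 2, fell below the level set for naming and was named after its values were seen. It held 2, 1.41 and 2.74 in LBD40 knockout libraries, 2.29, 2.05 and 0.73 in WRKY37 knockout libraries, and 0.62, 0.74 and 0.59 in WT libraries. All LBD40 knockout values exceeded WT at these low levels, and the WRKY37 knockout reached down to WT (limma log2 change in the LBD40 knockout 0.86, adjusted p = 0.0377). That call was lost without LBD40 knockout replicate 1 or 3, without any 1 of the WT libraries and without the low-value filter (0.0516 to 0.114).

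**Figure D4:**
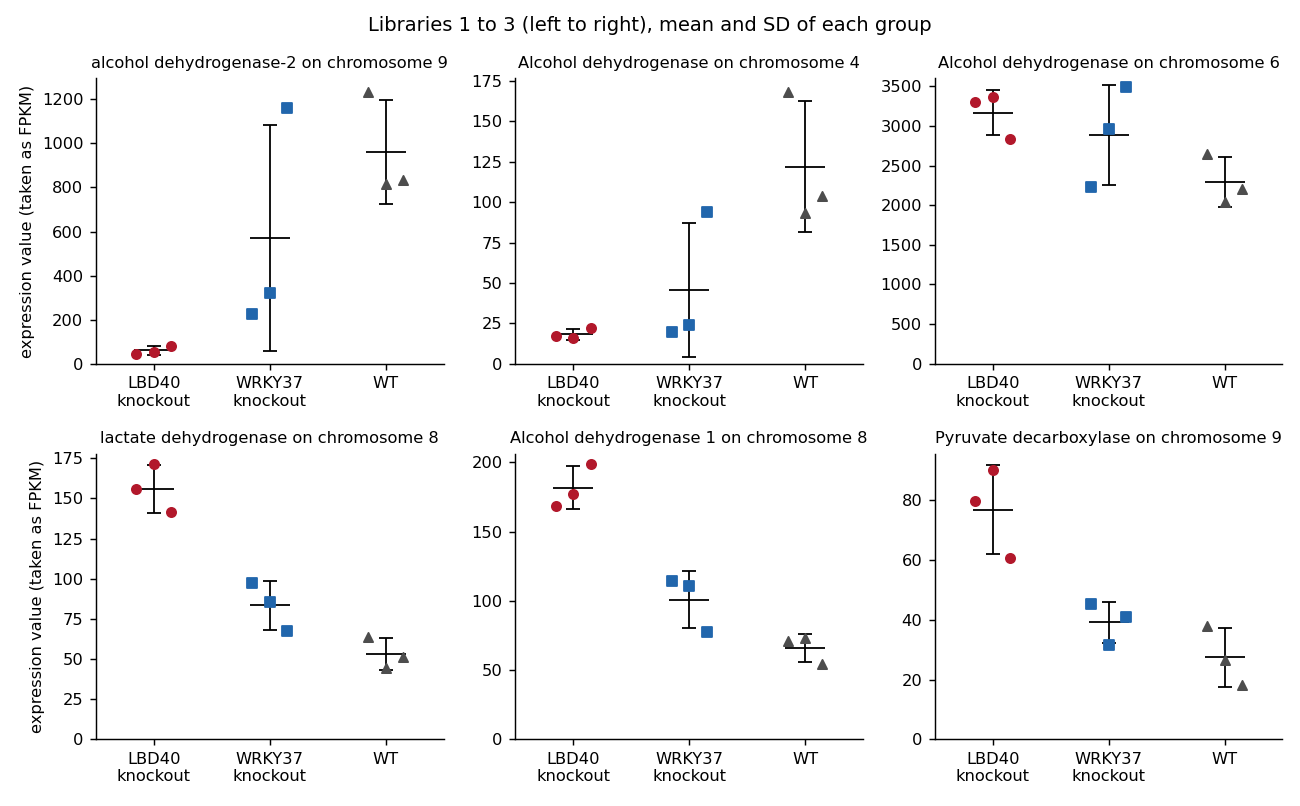
Levels of 6 fermentation genes in libraries 1 to 3 of each group from left to right, with the mean as a bar and the SD as whiskers, on linear axes that start at 0. Alcohol dehydrogenase-2 on chromosome 9 and alcohol dehydrogenase on chromosome 4 are lowest in the LBD40 knockout, the other 4 genes have their highest mean there, and WRKY37 knockout replicate 3 stands above its group in the first 2 panels.

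Of the 20 tested genes, 1 was called lower in the WRKY37 knockout, an alcohol dehydrogenase-like protein on chromosome 5. It held 52.84, 48.81 and 45.7 in LBD40 knockout libraries, 38.12, 25.17 and 30.92 in WRKY37 knockout libraries, and 55.36, 49.39 and 55.32 in WT libraries. The WRKY37 knockout lay below both other groups without overlap, and the LBD40 knockout overlapped WT. Its log2 change was -0.76 in the WRKY37 knockout minus WT (limma, SE 0.15, adjusted p = 0.0107), under every alternative tried, and -0.12 in the LBD40 knockout minus WT (adjusted p = 0.549). The difference between the knockouts was 0.65 (adjusted p = 0.0110), and lost the threshold without LBD40 knockout replicate 1 (0.0515).

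An allyl alcohol dehydrogenase-like protein on chromosome 8, whose tobacco namesake acts on allyl alcohols and not on ethanol, held 52.72, 50.12 and 80.39 in LBD40 knockout libraries, 79.83, 114.96 and 82.76 in WRKY37 knockout libraries, and 78.76, 78.03 and 67.25 in WT libraries. The knockouts overlapped, and LBD40 knockout replicate 3 lay above the other 2 of its group. The log2 difference between the knockouts was -0.60 (limma, adjusted p = 0.0432) and lost the threshold without any 1 library other than LBD40 knockout replicate 3 or WRKY37 knockout replicate 1 (0.0535 to 0.154), with only 2 groups in the fit (0.0927) and without the low-value filter (0.0778). Against WT it passed in neither knockout (log2 change -0.31 and 0.29). Without LBD40 knockout replicate 3 the change against WT in that knockout was -0.53 with adjusted p = 0.0402.

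Lactate dehydrogenase, the enzyme of the alternative route, was led by a gene on chromosome 8 that was higher in both knockouts. It held 155.68, 171.23 and 141.41 in LBD40 knockout libraries, 97.65, 85.65 and 67.38 in WRKY37 knockout libraries, and 63.78, 44.76 and 51.04 in WT libraries. The groups stood in 3 steps without overlap. The gene was 2.93 times as high in the LBD40 knockout as in WT (limma log2 change 1.55, SE 0.16, adjusted p = 0.000279) and 1.57 times as high in the WRKY37 knockout (log2 change 0.64, SE 0.16, adjusted p = 0.0371). The difference between the knockouts also passed (log2 difference 0.91, adjusted p = 0.00457). The first and the last call held under every alternative tried. The call in the WRKY37 knockout was lost under median-ratio scaling (0.0518), without the low-value filter (0.0721), with only 2 groups in the fit (0.0984), and without LBD40 knockout replicate 1 or 2, WRKY37 knockout replicate 1 or 2 or WT replicate 2 or 3 (0.0592 to 0.117).

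Summed levels of 2 marker lists, for endosperm and pollen, also lay above WT in the knockout libraries. Endosperm mannanases, which loosen the walls around the embryo and had 11 to 13 of 16 rows above 0 in a library, summed to 0.0288 to 0.0376% of the LBD40 knockout libraries, 0.0337 to 0.0490% of the WRKY37 knockout libraries and 0.0213 to 0.0257% of the WT libraries. Rows described by the word pollen, 17 to 23 of 44 above 0, took 0.0537 to 0.0589%, 0.0505 to 0.0647% and 0.0418 to 0.0479% in the same order. For both lists every knockout library lay above every WT library, as for lactate dehydrogenase on chromosome 8 and alcohol dehydrogenases on chromosomes 8 and 11. Green tissue genes, 69 to 90 of 187 above 0, took 0.0804 to 0.103% of the LBD40 knockout libraries, 0.0330 to 0.0490% of the WRKY37 knockout libraries and 0.0456 to 0.0887% of the WT libraries, so that the knockouts stood apart and each overlapped WT. The part of these transcripts in the higher fermentation genes was not tested.

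Of the other lactate dehydrogenase rows, LELDH2 L-lactate dehydrogenase on chromosome 8 averaged 2.33 ± 0.76 in the LBD40 knockout, 2.21 ± 0.96 in the WRKY37 knockout and 1.47 ± 0.23 in WT (SD, n = 3 each), with overlap. A mitochondrial D-lactate dehydrogenase of the cytochrome type on chromosome 11, a class that oxidises D-lactate in place of making lactate, averaged 9.10 ± 0.29 in the LBD40 knockout, 9.29 ± 1.44 in the WRKY37 knockout and 11.4 ± 0.53 in WT. Its LBD40 knockout libraries lay below WT without overlap, yet the log2 change of -0.29 did not pass the test (limma, adjusted p = 0.113). A D-lactate dehydrogenase on chromosome 11 was above 0 only in WRKY37 knockout replicate 2, at 4.75, and a D-lactate dehydrogenase of the cytochrome type on chromosome 6 was listed at 0.

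Among the alcohol dehydrogenases that passed in no comparison, the gene on chromosome 1 averaged 16.1 ± 0.81 in the LBD40 knockout, 14.2 ± 2.04 in the WRKY37 knockout and 14.7 ± 0.62 in WT (SD, n = 3 each). Alcohol dehydrogenase (copy 2) on chromosome 5 averaged 10.9 ± 1.42 and 10.2 ± 0.64 in the LBD40 and WRKY37 knockouts against 17.8 ± 6.36 in WT, where replicate 1 at 10.63 overlapped the knockouts (limma, adjusted p = 0.0677 and 0.102). Alcohol dehydrogenase-like 7 on chromosome 12 averaged 4.72, 4.29 and 3.88, and alcohol dehydrogenase 1 on chromosome 6 averaged 1.81, 1.71 and 2.06 in the LBD40 knockout, the WRKY37 knockout and WT. Alcohol dehydrogenase (copy 1) on chromosome 5 was at 10.1 in LBD40 knockout replicate 1, at 0.15 in WRKY37 knockout replicate 3 and listed at 0 in the other 7 libraries. Of the 20 tested genes 11 passed in some comparison and 9 in none. Close copies within the family may share reads, and the authors' treatment of such reads is not stated in the sources at hand.

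Levels were also summed over the rows of each enzyme. Alcohol dehydrogenase rows summed to 3734 ± 244 in the LBD40 knockout, 3877 ± 1092 in the WRKY37 knockout and 3706 ± 589 in WT (SD, n = 3 each), which is 0.422, 0.437 and 0.412% of the library total. Within that sum the makeup differed. The chromosome 6 gene made up 84.7 ± 2.20% of it in the LBD40 knockout, 75.4 ± 5.55% in the WRKY37 knockout and 62.1 ± 1.5% in WT. Alcohol dehydrogenase-2 on chromosome 9 made up 1.63 ± 0.63% in the LBD40 knockout, 7.88, 8.68 and 23.0% in WRKY37 knockout replicates 1 to 3, and 25.8 ± 2.16% in WT. The sums of the groups overlapped, while the share of this second gene in the LBD40 knockout libraries lay below that in every other library.

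Pyruvate decarboxylase rows summed to 2780 ± 254 in the LBD40 knockout, 2289 ± 436 in the WRKY37 knockout and 2378 ± 429 in WT, with overlap between all groups. The chromosome 2 gene made up 37.9 ± 1.13% of that sum in the LBD40 knockout, 29.1 ± 2.24% in the WRKY37 knockout and 25.9 ± 2.96% in WT, and the chromosome 10 gene 59.3 ± 1.38%, 69.1 ± 1.92% and 72.9 ± 2.97%. Lactate dehydrogenase rows summed to 168 ± 15.3 in the LBD40 knockout, 96.6 ± 17.0 in the WRKY37 knockout and 66.0 ± 9.10 in WT, and were the lowest of the 3 enzymes in every group. The ratio of the alcohol dehydrogenase sum to the pyruvate decarboxylase sum was 1.35 ± 0.039 in the LBD40 knockout, 1.67 ± 0.16 in the WRKY37 knockout and 1.56 ± 0.086 in WT. These sums and shares are descriptions and were not tested.

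**Figure D5:**
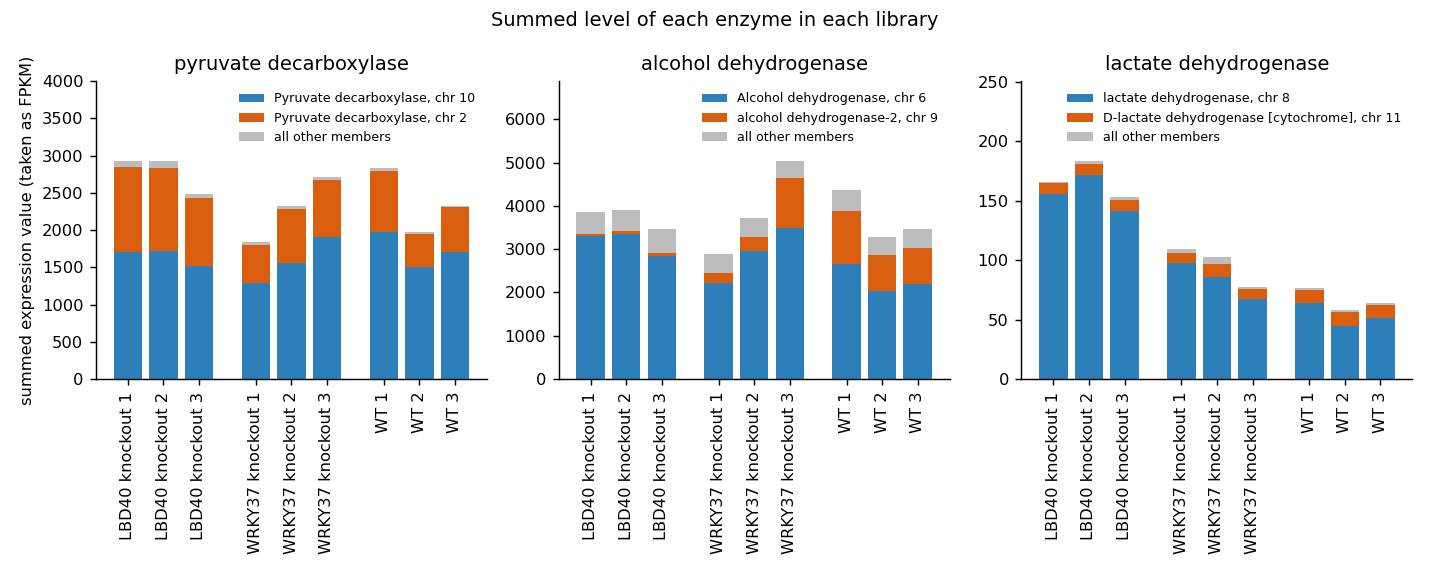
Summed level of the rows of each enzyme in each library, as bars that start at 0, split into the 2 genes of highest mean and all other rows. The alcohol dehydrogenase bars are of like height across groups while the part of alcohol dehydrogenase-2 on chromosome 9 is smallest in the LBD40 knockout, and lactate dehydrogenase bars are tallest in the LBD40 knockout.

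Genes around the fermentation step were read from 12 lists defined by description, with 100 genes of which 80 were tested. The lists were chosen with earlier results of these data known, so their shares beside all genes are descriptions and not tests. In the LBD40 knockout 30 were higher and 11 lower than in WT, which is 51.2% beside 37.2% of all genes, with a median log2 change of 0.27. In the WRKY37 knockout 8 were higher and 12 lower, which is 25% beside 9.38%, with a median of -0.04. The LBD40 knockout was higher than the WRKY37 knockout for 25 and lower for 6, which is 38.8% beside 27.0%. Single lists had 3 to 14 tested genes each. Of these, 25 to 100% were called in the LBD40 knockout minus WT, beside 37.2% of all genes. In the WRKY37 knockout minus WT it was 0 to 50%, beside 9.38%. The LBD40 count of 41 against WT became 26 and 25 without LBD40 knockout replicates 1 and 2, beside 24.7 and 24.8% of all genes. The difference count of 31 became 16 and 15 without the same libraries, beside 12.4 and 13.8%. The WRKY37 count of 20 became 9 to 13 without any 1 library other than LBD40 knockout replicate 3 or WRKY37 knockout replicate 3. Those fits called 4.27 to 7.34% of all genes.

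Of 4 genes named for hypoxia or anaerobic response, 2 were higher in the LBD40 knockout and 1 in the WRKY37 knockout. These shares, 50% and 25%, stand beside 37.2% and 9.38% of all genes. A hypoxia-responsive family protein on chromosome 6 held 4248.14, 5413.96 and 4038.8 in LBD40 knockout libraries, 5105.49, 1951.62 and 3065.6 in WRKY37 knockout libraries, and 1292.44, 1542.41 and 1376.72 in WT libraries. All knockout libraries lay above WT. It was 3.25 times as high in the LBD40 knockout as in WT (limma log2 change 1.69, adjusted p = 0.00197) and 2.40 times as high in the WRKY37 knockout (log2 change 1.16, adjusted p = 0.0314). The second call was lost under median-ratio scaling, without the low-value filter, with 2 groups in the fit, and without any 1 library other than LBD40 knockout replicate 3 or WRKY37 knockout replicate 2 (highest adjusted p = 0.109).

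In the list for haemoglobins, which bind oxygen and scavenge nitric oxide, 3 of 4 tested genes were higher in the LBD40 knockout. In the WRKY37 knockout 1 was higher and 1 lower. These shares, 75% and 50%, stand beside 37.2% and 9.38% of all genes. The lower one was non-symbiotic hemoglobin 2 on chromosome 3. It averaged 65.4 in the LBD40 knockout, 45.5 in the WRKY37 knockout and 68.5 in WT. Its log2 change in the WRKY37 knockout was -0.58 (limma, adjusted p = 0.0116), a call lost in 1 of 17 alternatives. In the LBD40 knockout it was -0.07 (limma, adjusted p = 0.649). Non-symbiotic hemoglobin like on chromosome 7 was higher in the LBD40 knockout (limma log2 change 0.42, adjusted p = 0.0260), a call lost in 6 of 17 alternatives. Two-on-two hemoglobin-3 on chromosome 8 averaged 275 ± 15.3 in the LBD40 knockout, 193 ± 22.6 in the WRKY37 knockout and 122 ± 4.47 in WT (SD, n = 3 each). It was higher in both knockouts than in WT, under every alternative tried (limma log2 change 1.16 and 0.65, adjusted p = 0.000147 and 0.00494). The pattern for the haemoglobins also took in leghemoglobin reductase, which is no haemoglobin, so the counts of this list may include it.

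Upstream of pyruvate, sucrose synthases, which cleave sucrose without using ATP, had 2 of 5 higher and 1 lower in the LBD40 knockout. They had 1 higher and 1 lower in the WRKY37 knockout. That is 60% and 40%, beside 37.2% and 9.38% of all genes. The fruit sucrose synthase on chromosome 12 averaged 71.1 ± 8.75 in the LBD40 knockout, 69.5 ± 8.32 in the WRKY37 knockout and 39.2 ± 2.09 in WT, and was higher in both (limma log2 change 0.84 and 0.81, adjusted p = 0.00114 and 0.00392). Pyruvate kinase, the last step of glycolysis, had 4 of 10 higher in the LBD40 knockout and 1 lower in the WRKY37 knockout. These shares, 40% and 10%, lie near the 37.2% and 9.38% of all genes. One pyruvate kinase gene, on chromosome 3, changed in opposite directions. It averaged 31.7 ± 6.78 in the LBD40 knockout, 7.22 ± 0.81 in the WRKY37 knockout and 17.2 ± 2.87 in WT, with no overlap between the groups (limma log2 change 0.84 and -1.14 against WT, adjusted p = 0.00611 and 0.00439). Of the pyrophosphate-dependent phosphofructokinases 1 of 4 was higher in each knockout. That is 25%, beside 37.2% of all genes in the LBD40 knockout and 9.38% in the WRKY37 knockout.

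Other uses of pyruvate and acetaldehyde were mixed. The list for the pyruvate dehydrogenase complex, which feeds pyruvate to respiration, had 6 of 14 genes higher and 1 lower in the LBD40 knockout. In the WRKY37 knockout 1 was higher. These shares, 50% and 7.14%, stand beside 37.2% and 9.38% of all genes. The gene higher in the WRKY37 knockout was a mitochondrial pyruvate dehydrogenase kinase on chromosome 1, not an enzyme subunit of the complex. Its log2 change was 0.52 (limma, adjusted p = 0.0443), a call lost in 11 of 17 alternatives. The lower gene, an E1 component subunit beta on chromosome 5, averaged 18.2 ± 1.82 in the LBD40 knockout, 49.4 ± 18.9 in the WRKY37 knockout and 81.6 ± 18.4 in WT (SD, n = 3 each), and fell by 2.09 on the log2 scale in the LBD40 knockout (limma, adjusted p = 0.000573). Aldehyde dehydrogenases, which oxidise acetaldehyde and other aldehydes, had 3 of 13 higher and 4 lower in the LBD40 knockout. They had 2 higher and 4 lower in the WRKY37 knockout. That is 53.8% and 46.2%. The gene on chromosome 5 averaged 47.2 ± 4.72 in the LBD40 knockout against 17.9 ± 0.91 in WT (limma log2 change 1.35, adjusted p = 0.000526). The gene on chromosome 12 (copy 1) averaged 34.9 ± 7.96 in the LBD40 knockout against 119 ± 9.44 in WT (log2 change -1.76, limma adjusted p = 0.00195). Acetyl-CoA synthetases had 1 of 4 higher in the LBD40 knockout, or 25%, and none called in the WRKY37 knockout.

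Glutamate decarboxylase makes GABA, which builds up in oxygen-poor plant tissue. Of its 4 tested genes 2 were higher and 1 lower in the LBD40 knockout, and 1 was lower in the WRKY37 knockout. These shares, 75% and 25%, stand beside 37.2% and 9.38% of all genes. The gene on chromosome 4 held 181.11, 179.73 and 109.67 in LBD40 knockout libraries, 45.43, 30.02 and 49.54 in WRKY37 knockout libraries, and 50.72, 37.45 and 45.04 in WT libraries. The LBD40 knockout stood apart and the other groups overlapped (limma log2 change 1.77 against WT and 1.88 against the WRKY37 knockout, adjusted p = 0.000693 and 0.000709). Alanine aminotransferases, which turn pyruvate into alanine, had 1 of 5 higher and 1 lower in each knockout. That is 40%, beside 37.2% of all genes in the LBD40 knockout and 9.38% in the WRKY37 knockout. Malate dehydrogenases had 3 of 10 higher and 2 lower in the LBD40 knockout and 2 lower in the WRKY37 knockout, which is 50% and 20%. Their pattern also took in 3-isopropylmalate dehydrogenase of leucine synthesis. Alternative oxidases, which pass electrons to oxygen without pumping protons, had 2 of 3 higher and 1 lower in the LBD40 knockout. In the WRKY37 knockout 1 was lower. That is 100% and 33.3%. A higher one, alternative oxidase on chromosome 8, averaged 624 in the LBD40 knockout, 308 in the WRKY37 knockout and 327 in WT. Its log2 change in the LBD40 knockout minus WT was 0.95 (limma, adjusted p = 0.0162), a call lost in 3 of 17 alternatives. The lower one, alternative oxidase 2 on chromosome 1, averaged 2.53 ± 0.27 in the LBD40 knockout, 5.98 ± 1.93 in the WRKY37 knockout and 13.1 ± 2.01 in WT (limma log2 change -1.99 and -1.04, adjusted p = 0.00035 and 0.0170). The second of these calls was lost with 2 groups in the fit and without WT replicate 1 (highest adjusted p = 0.0797).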

How the data were processed

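Total RNA of tomato seeds was sequenced after 6 h of imbibition, per the labels' protocols with the RNeasy mini plus kit and the SMARTER mRNA-Seq kit. Per the submitters' processing notes the tools were Cufflinks, HISAT2, StringTie and TopHat2, with no version or role stated. Genome build, annotation and the treatment of reads shared by gene copies were not given in the sources used here. Values in the deposited table were taken as FPKM. No header states the unit, which was judged by fractional values and unequal library sums, and TPM calculated over more genes than listed remains possible. In the deposited table the column of WT replicate 1 touches the gene names, and it was read by character position as the same quantity. The table cuts gene IDs to 8 characters, so genes are named by description and chromosome.

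Genes with a mean of at least 1 (18346) were put on the log2(value + 1) scale, which understates changes of low genes, and analysed by limma-trend (limma 3.58.1, R 4.3.3), with all 9 libraries in 1 fit and genotype as the only term. Benjamini-Hochberg adjustment ran across all tested genes, with a threshold of 0.05 on the adjusted p. Ratios are ratios of group means. The fit was tested on simulated data. Single values of 3 against 3 libraries were not tested alone, since an exact permutation test cannot go below 0.1 there. Named genes were members called in any comparison with a mean of at least 5 in the highest group, the member of highest mean of each enzyme, and up to 3 called genes of smallest adjusted p in each of the 12 lists and each comparison with WT, from which the text takes examples. Members, lists and tests were chosen with earlier results of these data known. Alternatives were a pseudocount of 0.1, quantile normalization, equal library totals, median-ratio scaling, no low-value filter, a minimum mean of 5, 2 groups in the fit, the replicate number as a block and leaving out each library. Tables and figures were made in Python 3.11.15 (pandas 2.3.3, matplotlib 3.10.9, numpy 2.4.6).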

Additional observations from a re-analysis of the deposited data

How the results depend on the processing

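Of the fermentation genes called in the main setting, 6 of 9 in the LBD40 knockout minus WT, 1 of 3 in the WRKY37 knockout minus WT and 3 of 8 between the knockouts kept their call under each of the alternatives run. The cause of the losses was not tested. Leaving out 1 library changes both the number of libraries and which ones remain. The count in the WRKY37 knockout minus WT, 3 in the main setting, was 5 with a minimum mean of 5 (which tests fewer genes) and 1 with 2 groups in the fit, and 1 to 7 when libraries were left out in turn. Counts between the knockouts ranged from 3 to 7 and in the LBD40 knockout minus WT from 6 to 10 when libraries were left out. Over all genes, leaving out libraries gave 2282 to 5192 calls between the knockouts and 4533 to 7641 in the LBD40 knockout minus WT. In the WRKY37 knockout minus WT it gave 783 to 2629. Calls there were 11.3% of all genes with a minimum mean of 5 and 4.37% with 2 groups in the fit.

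Among the genes of the 12 lists, the count in the WRKY37 knockout minus WT, 20 in the main setting, was 13 without the low-value filter, 8 with 2 groups in the fit and 11 with the replicate block, and 9 to 20 when libraries were left out. Without the filter, with 2 groups and with the block, 4.34, 4.37 and 6.56% of all genes were called. Leaving out libraries gave 25 to 45 in the LBD40 knockout minus WT and 15 to 30 between the knockouts.

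Libraries with the same replicate number did not pair: correlations of their deviations from group means lay between -0.105 and 0.0633 over 9 pairs, none over 0.1. With the replicate block the counts of fermentation genes were 7, 3 and 6 in the LBD40 knockout minus WT, the WRKY37 knockout minus WT and between the knockouts. The calls of fermentation genes lost with the block were zinc-binding alcohol dehydrogenase domain-containing protein 2 and alcohol dehydrogenase superfamily (copy 1) in the LBD40 knockout minus WT (limma adjusted p = 0.0528 and 0.0664), and pyruvate decarboxylase on chromosome 2 and the allyl alcohol dehydrogenase-like protein between the knockouts (0.0789 and 0.0714).

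Single log2 changes were followed through the alternatives only for genes called in some comparison and for the gene of highest mean of each enzyme. Among these the sign turned for 7 log2 changes, none of them called, each when 1 library was left out. The other tested genes were not followed in this way. Pyruvate decarboxylase on chromosome 10 then ranged from -0.16 to 0.040 in the LBD40 knockout minus WT, from -0.28 to 0.0059 in the WRKY37 knockout minus WT and from -0.068 to 0.22 between the knockouts. In the WRKY37 knockout minus WT, pyruvate decarboxylase on chromosome 2 ranged from -0.094 to 0.33 and zinc-binding alcohol dehydrogenase domain-containing protein 2 on chromosome 1 from -0.28 to 0.061. Between the knockouts, alcohol dehydrogenase on chromosome 6 ranged from -0.023 to 0.30 and alcohol dehydrogenase superfamily (copy 1) on chromosome 2 from -0.078 to 0.39. Depth limits genes with values near or below 1. Of these, 9 were too low to test, while alcohol dehydrogenase superfamily (copy 1) on chromosome 2, below 1 in every WT library, and alcohol dehydrogenase (copy 1) on chromosome 5, listed at 0 in 7 libraries, were tested.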
